A study of Mus musculus with 3 samples.

Results

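Bicarbonate and chloride transporters were described across the cell types of the mouse iridocorneal angle and limbus, as 7 genes of the 31053 measured, chosen by name: *Slc4a2*, *Slc4a4*, *Slc4a5*, *Slc4a7*, *Slc4a10*, *Slc4a11* and *Slc12a2*. Their UMIs (unique molecular identifiers, each marking 1 captured RNA molecule) were counted in the cells kept by the authors and grouped by the deposited cell label and by library. SLC4 proteins carry bicarbonate across the plasma membrane, in exchange for chloride (AE2, from *Slc4a2*) or together with sodium (NBCe1 from *Slc4a4*, NBCe2 from *Slc4a5*, NBCn1 from *Slc4a7* and the sodium-dependent transporter from *Slc4a10*). *Slc4a11* encodes a relative that is mutated in corneal endothelial dystrophy, and *Slc12a2* encodes NKCC1, which brings sodium, potassium and chloride into the cell. In the eye these proteins are known from the ciliary epithelium, where ion transport drives the secretion of aqueous humor, from the retinal pigment epithelium (RPE), which moves fluid away from the retina, and from the corneal endothelium, which pumps fluid out of the corneal stroma.

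The experiment comprised 3 droplet libraries, 2 from control mice (*Angpt1* flox/flox, here control 1 and control 2) and 1 from *Angpt1*ΔNC mice (*Angpt1* flox/flox;Wnt1Cre+), all aged 6 weeks, of mixed strain and made albino by crossing to ICR. Wnt1-Cre recombines in the neural crest and its descendants, so cells of other origin keep the gene, and the flox alleles are carried by both groups. Each library pooled the limbal and angle tissue of 2 to 3 mice (4 to 6 eyes), from which the lens, the retina, the cornea in front of the limbus and most of the iris had been cut away. The library, and not the cell or the mouse, was the replicate. The kept cells numbered 9076 in control 1, 10160 in control 2 and 6772 in *Angpt1*ΔNC (26008 in all, under 35 labels), with medians of 6329.5, 6393.5 and 7444 UMIs per cell. Pairs of libraries shared 13 to 25 barcodes of kept cells. *Angpt1* made up 37.8 and 39.3 UMIs per 1,000,000 in the controls and 0.391 in *Angpt1*ΔNC. Males and females are stated to have been pooled in each group. *Xist*, which is expressed in females, made up 0.0390, 0.0249 and 652 UMIs per 1,000,000 in the same order, and the Y-linked *Ddx3y* 101, 115 and 49.1. The near absence of *Xist* from both control libraries goes against that statement, and over whole libraries the sex of the pools and the genotype cannot be told apart.

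Levels below are means over cells of UMIs per 10,000 UMIs of the cell, in the order control 1, control 2 and *Angpt1*ΔNC. The labels were made by clustering these same cells (*Slc4a4*, *Slc4a5* and *Slc4a11* are among the 3467 genes of the deposited integrated table), so differences between labels are given as descriptions with no test. Over all kept cells the libraries held 1828, 1329 and 1098 UMIs of *Slc4a2*, 2404, 2815 and 2022 of *Slc4a4*, and 1404, 538 and 444 of *Slc4a5*. *Slc4a7* had 3127, 3320 and 3177 UMIs, *Slc4a10* 65, 225 and 169, *Slc4a11* 508, 662 and 531, and *Slc12a2* 9499, 11736 and 6830. The leading label differed between the genes except for *Slc4a2* and *Slc4a5*, which shared cluster 1, and *Slc4a11* and *Slc12a2*, which shared TM2.

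**Figure D1:**
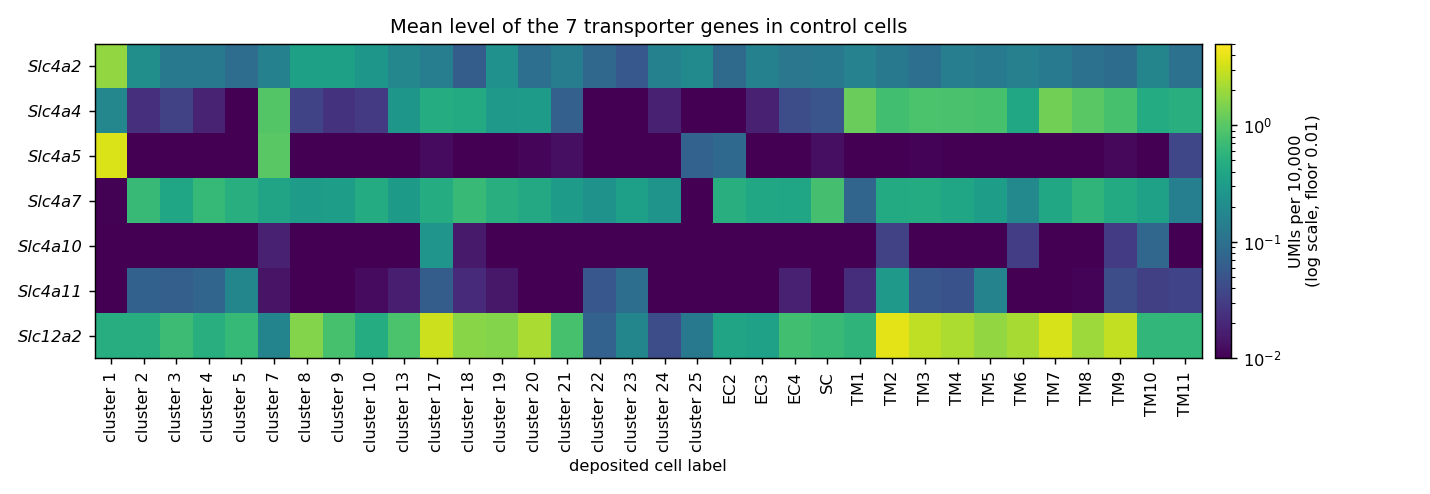
Mean level in the controls of each of the 7 genes (rows) in the 34 labels with at least 20 cells in both controls (columns), as UMIs per 10,000 on a log colour scale with values under 0.01 drawn at 0.01. *Slc4a5* stands out in clusters 1 and 7, and *Slc4a10* in cluster 17.

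The RPE (cluster 1) led both *Slc4a5* and *Slc4a2*. All 6 RPE markers (*Rpe65*, *Rgr*, *Rlbp1*, *Rdh5*, *Ttr* and *Slc16a8*) were detected in over 10% of its cells and were among its 10 leading genes. *Slc4a5* stood there at 4.27, 2.83 and 3.405 UMIs per 10,000, with at least 1 UMI in 117 of 133 cells of control 1 (88.0%, exact 95% confidence interval 81.2 to 93.0), 64 of 81 cells of control 2 (79.0%, 68.5 to 87.3) and 15 of 17 cells of *Angpt1*ΔNC (88.2%, 63.6 to 98.5). The control levels differed by more than the 3rd library lay from either, and the *Angpt1*ΔNC value fell between them. The intervals cover counting error only. Immune cells (clusters 22 to 25), which should lack the gene, gave 0.137%, 0.591% and 0.615% positive cells at median depths of 6008, 5873 and 6226 UMIs, against 17538, 10444 and 18150 in cluster 1. After thinning every cell to 2000 UMIs, 57.3%, 46.3% and 52.9% of the RPE cells still carried *Slc4a5*.

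*Slc4a2*, the anion exchanger, was at 2.105, 1.52 and 1.71 UMIs per 10,000 in cluster 1, 5.30 times the next label by the mean of the controls. It was also found at a low level nearly everywhere, with a median over labels of 0.135. Clusters 8 (0.403, 0.281 and 0.338) and 9 (0.383, 0.295 and 0.402), both with melanocyte markers, came next and overlapped each other. RPE cells often held both RNAs: 103 of 133 cells of control 1, 45 of 81 of control 2 and 13 of 17 of *Angpt1*ΔNC had UMIs of *Slc4a2* and *Slc4a5*. The cells with neither (12, 10 and 2) were shallow, with medians of 1834.5, 1383 and 6167.5 UMIs against 20085, 18724 and 18550 in the cells with both. Single RPE cells reached 70 UMIs of *Slc4a5* and 31 of *Slc4a2*.

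The RPE was 1.47% of the kept cells of control 1 and 0.797% of control 2, yet held 80.1% and 79.6% of their *Slc4a5* UMIs. In *Angpt1*ΔNC the RPE was 0.251% of the cells and held 34.0%, and cluster 7 held 59.0% there against 16.6% and 13.9% in the controls. Of the 1404, 538 and 444 UMIs of *Slc4a5*, 1124, 428 and 151 lay in the RPE, in 133, 81 and 17 cells. Per 1,000,000 UMIs of the library the totals were 18.2, 6.70 and 6.68. Control 2 and *Angpt1*ΔNC were thus alike in the total though not in the number of RPE cells. What part the numbers of cells caught have in the totals was not tested. In the same cells, *Slc4a7* was nearly missing in the controls (0.0153 and 0.00563 UMIs per 10,000, and 0.134 in *Angpt1*ΔNC), while *Slc12a2* stood at 0.501, 0.457 and 0.670. With 17 *Angpt1*ΔNC cells, under the minimum of 20, cluster 1 was not tested between genotypes. The RPE markers *Rpe65* (45.6, 43.4 and 6.97) and *Rgr* (78.1, 52.6 and 10.5) were lower in these 17 cells than in either control, and what part this has in the transporter values was not tested.

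Among the other genes of the transport lists, *Car14*, a membrane-bound carbonic anhydrase, was highest of all labels in cluster 1 at 14.7, 13.0 and 9.90 UMIs per 10,000. *Car12*, another extracellular carbonic anhydrase, followed at 1.71, 1.61 and 1.42. The sodium pump subunit *Atp1b1* was also at its highest there (10.0, 7.94 and 8.29). Over the 34 labels the log2 control levels of *Slc4a2* and *Slc4a5* correlated at r = 0.68 (Pearson). The genes most like *Slc4a5* among 7322 compared were *Cox8b* (r = 0.99), *Gm40932* (0.97), *Slc39a12*, a zinc transporter (0.97), *Slc6a13*, a GABA transporter (0.96), and *Rlbp1*, the retinaldehyde-binding protein of the visual cycle (0.96). For *Slc4a2* they were *Lrat*, which makes retinyl esters (r = 0.91), *Fn3k* (0.89), *Pxmp2* (0.88), *Metrn* (0.87) and *Tmem56* (0.87). These correlations share libraries and labels and carry no p.

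Because *Slc4a2* and *Slc4a5* both peaked in the RPE, their start regions are shown, as 300 bases around each start in RefSeq's table for GRCm38.p6, in which 5 of the 7 genes had an entry. *Slc4a2* (plus strand) has a start region at chr5:24424982-24425281 and another at chr5:24425594-24425893, and *Slc4a5* (plus strand) has 1 at chr6:83237125-83237424. Capitals mark matches, on either strand, to the E-box CACGTG, the OTX homeobox core TAATCC or the GC box GGGCGG.
Slc4a2 first start region: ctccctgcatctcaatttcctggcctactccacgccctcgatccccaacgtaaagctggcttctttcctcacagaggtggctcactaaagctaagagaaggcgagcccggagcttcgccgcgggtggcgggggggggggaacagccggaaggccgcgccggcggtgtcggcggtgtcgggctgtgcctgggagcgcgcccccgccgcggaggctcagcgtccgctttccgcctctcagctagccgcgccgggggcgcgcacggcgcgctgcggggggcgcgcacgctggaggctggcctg
Slc4a2 second start region: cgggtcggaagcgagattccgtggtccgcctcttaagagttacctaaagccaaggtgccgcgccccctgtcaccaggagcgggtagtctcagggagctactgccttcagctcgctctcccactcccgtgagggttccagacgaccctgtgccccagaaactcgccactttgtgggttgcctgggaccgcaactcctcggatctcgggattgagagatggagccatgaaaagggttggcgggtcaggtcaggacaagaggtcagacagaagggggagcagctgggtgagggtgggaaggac
Slc4a5 start region: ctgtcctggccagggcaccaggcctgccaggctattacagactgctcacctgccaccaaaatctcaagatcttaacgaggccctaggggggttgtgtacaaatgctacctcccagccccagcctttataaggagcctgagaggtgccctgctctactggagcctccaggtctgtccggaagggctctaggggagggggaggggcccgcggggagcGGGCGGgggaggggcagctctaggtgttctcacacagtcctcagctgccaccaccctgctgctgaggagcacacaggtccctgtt
Neither region of *Slc4a2* held any of the 3 motifs, and that of *Slc4a5* held 1 GC box. Of all 32851 start regions in the table, 7.15% held the E-box, 7.06% the OTX core and 35.7% the GC box. The UMI counts do not say which start of *Slc4a2* was used. *Slc4a2* lies on chromosome 5 from 24423837 to 24440950 and overlaps *Fastk* on the other strand.

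The ciliary epithelium (cluster 7) was the other site of *Slc4a5* and a leading site of *Slc4a4*. All 7 ciliary markers (*Pax6*, *Pcp4*, *Otx1*, *Zic1*, *Aqp1*, *Best2* and *Gja1*) were detected in over 10% of its cells, and *Pcp4* was among its 10 leading genes. *Slc4a5* was at 1.03, 1.03 and 1.36 UMIs per 10,000, and 12.3 times the next label in the controls. *Slc4a4*, the electrogenic sodium bicarbonate cotransporter, was at 0.969, 0.933 and 0.354. Positive cells of *Slc4a5* made up 38.9%, 38.3% and 50.4% of the label, and those of *Slc4a4* 33.2%, 30.8% and 16.5%. Immune cells gave 0.548%, 0.887% and 0.615% for *Slc4a4*. The controls lay close together for both genes, and *Angpt1*ΔNC lay above them for *Slc4a5* and below them for *Slc4a4*. *Slc12a2* was low in this label, at 0.182, 0.145 and 0.247.

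The cells of cluster 7 were sorted by which of the 2 RNAs they held. In control 1, 55 cells had *Slc4a4* alone, 73 *Slc4a5* alone, 50 both and 138 neither. In control 2 the numbers were 13, 21, 20 and 53, and in *Angpt1*ΔNC 8, 55, 15 and 61. As shares of the label, cells with *Slc4a4* alone were 17.4%, 12.1% and 5.76%, and cells with *Slc4a5* alone 23.1%, 19.6% and 39.6%. *Best2*, the bestrophin channel gene known from the non-pigmented side of this epithelium, was found in 45.2%, 38.1% and 32.7% of the cells with *Slc4a5* alone, but in 1 of 55, 0 of 13 and 0 of 8 of the cells with *Slc4a4* alone. *Aqp1*, a water channel gene of the same marker list, did not follow it: it was found in 42.5%, 28.6% and 85.5% of the cells with *Slc4a5* alone and in 40%, 53.8% and 12.5% of those with *Slc4a4* alone. *Zic1*, a transcription factor gene, was found in 39.7%, 42.9% and 60.0% of the former and in 7.27%, 0% and 0% of the latter. Depth was alike in the controls, with medians of 8594 and 8020 UMIs in cells with *Slc4a5* alone and 9248 and 7433 in those with *Slc4a4* alone. Transcripts of melanosome genes were found in both classes. *Dct*, a melanin synthesis gene, was detected in every cell with *Slc4a4* alone and in 75.3%, 85.7% and 100% of those with *Slc4a5* alone. Their levels did not move together. *Pmel*, which forms the fibrils of the melanosome, was at 119, 77.3 and 97.4 UMIs per 10,000 in cells with *Slc4a4* alone and at 54.9, 42.2 and 34.5 in cells with *Slc4a5* alone, whereas *Tyrp1*, another melanin synthesis gene, was at 16.2, 9.18 and 15.3 and at 14.7, 11.3 and 20.3. *Best2*, *Zic1* and *Pmel* were picked out after the values were seen. In cells with both RNAs *Best2* was found in 10%, 5% and 13.3%, between the values of the other two classes.

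**Figure D2:**
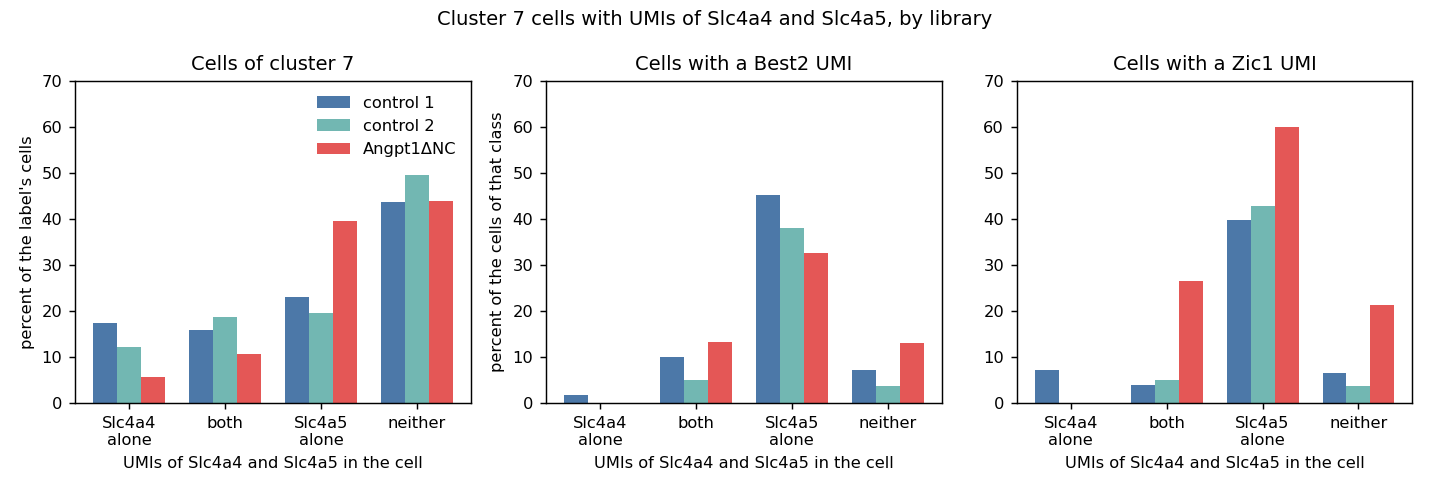
Cells of cluster 7 by whether they held UMIs of *Slc4a4* alone, of both, of *Slc4a5* alone or of neither, as a percent of the label (left), and the percent of each class with a *Best2* UMI (middle) or a *Zic1* UMI (right), 1 bar for each library. *Best2* and *Zic1* were most frequent in the cells with *Slc4a5* alone in all 3 libraries.

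A split by markers that are no members left few cells for the non-pigmented side. With at least 2 UMIs of melanosome genes (*Tyrp1*, *Pmel*, *Mlana*, *Tyr*, *Dct* and *Slc45a2*) and none of *Best2*, *Aqp1*, *Aqp4* and *Opcml*, 137, 53 and 42 cells were marked as pigmented, and with the reverse rule 5, 3 and 2 cells as non-pigmented. Cells with markers of both sides numbered 127, 32 and 79, so this split describes a range and not types. Pigmented cells held *Slc4a4* at 1.65, 1.05 and 0.820 and *Slc4a5* at 1.22, 1.31 and 0.847 UMIs per 10,000. In the 10 non-pigmented cells there was no *Slc4a4* UMI, and *Slc4a5* had 5, 2 and 0 UMIs. In the unmarked cells, *Slc4a4* was at 0.462, 0.865 and 0.155 and *Slc4a5* at 0.874, 0.773 and 1.61. *Slc12a2* gave 16, 11 and 8 UMIs in the pigmented cells.

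Between genotypes, *Slc4a4* in cluster 7 had 215, 78 and 34 UMIs, or 84.2, 112 and 20.99 counts per 1,000,000 UMIs of the label after TMM scaling (CPM), with a log2 fold change of -2.19 ± 0.32 (SE). By edgeR's quasi-likelihood test this did not pass after adjustment over the genes of the label (adjusted p = 0.142, unadjusted p = 0.000598), while DESeq2 gave an adjusted p of 0.0274. *Slc4a5* had 233, 75 and 262 UMIs (91.3, 107 and 162 CPM), a log2 fold change of 0.72 ± 0.22 and an edgeR adjusted p of 0.329. Beside these, *Aqp1* stood at 0.890, 0.581 and 1.85 UMIs per 10,000 and *Zic1* at 0.388, 0.264 and 0.679, *Best2* at 0.510, 0.537 and 0.363, and *Dct* at 39.1, 40.5 and 56.3. In *Angpt1*ΔNC, *Aqp1*, *Zic1* and *Dct* lay above both controls and *Best2* below them, and their part in the values of *Slc4a4* and *Slc4a5* was not tested.

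Outside the ciliary epithelium, the highest means of *Slc4a4* were in TM labels. Its leading label was TM7 (1.41, 1.27 and 0.887 UMIs per 10,000), whose top genes include *Cyp26a1*, *Gpc3* and *Chil1*. TM1, which holds keratocyte markers, followed at 1.14, 1.25 and 1.70, and TM8 at 1.05, 0.976 and 0.928. These 3 labels and cluster 7 did not overlap with their neighbours in the order of the controls, whereas TM3, TM4, TM9 and TM5 (means of 0.810 to 0.863) did. In TM7, 49.2%, 49.5% and 42.0% of the cells were positive at full depth and 23.4%, 22.1% and 13.4% after thinning. Surface epithelium, endothelium and immune cells held little: cluster 5, which holds corneal epithelial markers, was at 0.00624, 0.00677 and 0.0103. The genes most like *Slc4a4* over the labels were *Mrc2*, a collagen receptor (r = 0.92), *Islr* (0.91), *Pcolce*, an enhancer of procollagen cleavage (0.90), *Loxl1*, an elastin cross-linking enzyme (0.90), and *Ctsk*, a collagen-degrading protease (0.90).

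*Slc4a11* had its highest mean in TM2, the label with corneal endothelial markers, at 0.131, 0.443 and 0.296 UMIs per 10,000. The controls differed by more than the distance to the next label, cluster 5 (0.195, 0.148 and 0.161), which they overlapped, and without control replicate 2 TM5 led at 0.196. All 6 corneal endothelial markers were detected in TM2, and *Cldn10* and *Col8a2* were among its 10 leading genes, but so was *Myoc*, the myocilin gene of the trabecular meshwork. Positive cells were 7.10% (4.55 to 10.5), 9.72% (7.28 to 12.6) and 14.8% (11.1 to 19.1) of TM2, against 1.096%, 1.18% and 0.154% of the immune cells. In cluster 5, where cells were deeper (medians of 21528, 18747 and 20189 UMIs against 7033, 7254.5 and 7536 in TM2), 32.5%, 24.4% and 25.6% were positive, with at most 6 UMIs in a cell.

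In TM2 the UMIs of *Slc4a11* were gathered in few cells. Cells with 3 or more UMIs numbered 2 of 324 in control 1, 17 of 504 in control 2 and 7 of 325 in *Angpt1*ΔNC, 26 of 1153 (2.25%) in all, and single cells reached 27, 62 and 36 UMIs. These cells held 56.4%, 88.0% and 69.6% of the label's *Slc4a11* UMIs. Without them *Slc4a11* in TM2 was at 0.0822, 0.0905 and 0.157 UMIs per 10,000. This mean had to fall, because the cells left out were chosen by their *Slc4a11* UMIs. Among the other transporters, only *Slc4a4* was higher in the 26 cells in every library. *Slc4a4* was at 3.63, 4.28 and 3.54 in them, against 0.666, 0.716 and 0.925 in TM2 cells with no *Slc4a11* UMI. In control 1 its 14 UMIs all lay in 1 of the 2 cells. *Slc12a2* was at 1.18 against 3.92 in control 2 and at 1.89 against 2.79 in *Angpt1*ΔNC, but at 4.89 against 3.98 in the 2 cells of control 1. *Slc4a7* was mixed as well, at 0.771, 0.196 and 0.644 against 0.554, 0.356 and 0.508. So was *Slc4a2*, at 0, 0.112 and 0.398 against 0.123, 0.129 and 0.135.

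Most of the genes known from the corneal endothelium that were looked at were higher in these 26 cells. *Atp1b1*, a sodium pump subunit, was at 8.25, 8.28 and 9.06 against 2.57, 3.13 and 2.58, and *Col8a2*, a collagen of Descemet's membrane, at 10.6, 9.78 and 10.4 against 4.13, 4.97 and 6.18. *Cldn10* was at 24.2, 38.3 and 20.8 against 7.68, 11.6 and 9.11. *Col8a1*, the partner chain of *Col8a2*, was at 1.55, 7.55 and 5.24 against 2.27, 2.58 and 2.27, so the 2 cells of control 1 were below the rest. *Tjp1*, a tight junction gene of the same list, was at 0, 0.715 and 0.582 against 0.251, 0.367 and 0.150, again with control 1 below. *Car3*, a cytosolic carbonic anhydrase, was at 51.3, 105 and 48.2 against 1.37, 1.42 and 2.77. *Col4a3*, a basement membrane collagen chain, was at 3.37, 6.10 and 3.95 against 0.235, 0.339 and 0.231. Only 1 of the 2 cells of control 1 held *Col4a3*. *Myoc* went the other way, at 1.81, 4.58 and 8.73 against 21.6, 33.7 and 19.6, and *Chil1*, a trabecular marker, at 0.259, 0.890 and 0.295 against 5.82, 8.08 and 4.28. TM2 cells with 1 or 2 *Slc4a11* UMIs were near those with none in *Slc4a4* (0.617, 0.928 and 1.04) and *Myoc* (24.7, 39.0 and 23.6). The split by UMIs and the genes *Car3* and *Col4a3* were chosen after the values were seen, and the cells with 3 or more UMIs were deeper than the rest (medians of 19419, 14619 and 18939 against 6902, 7143 and 7246). 

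**Figure D3:**
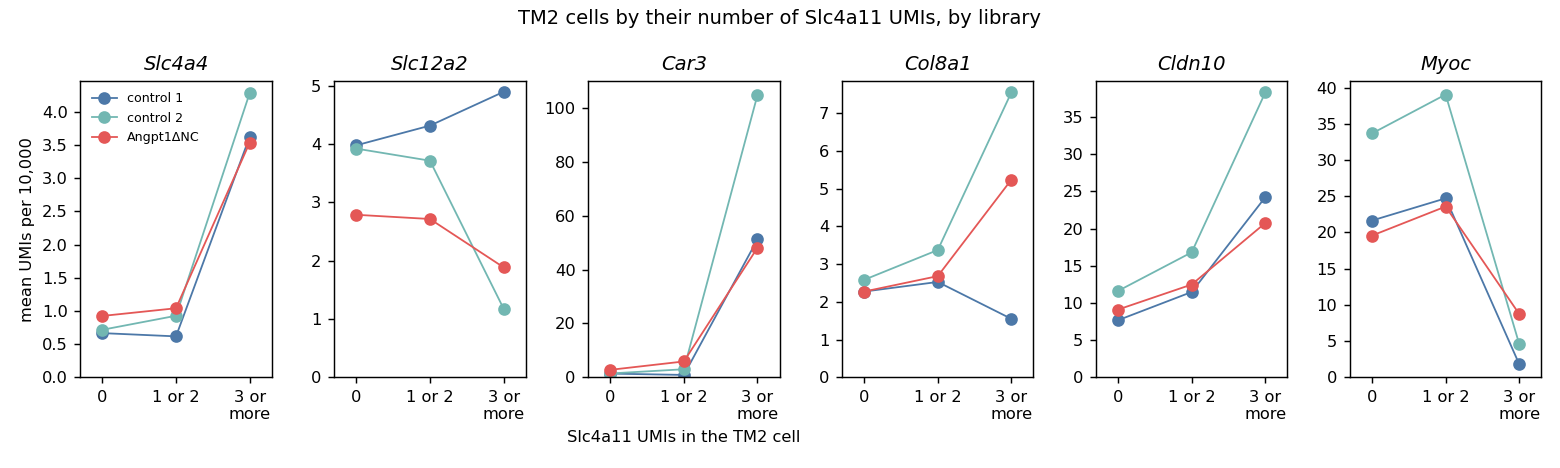
Mean level (UMIs per 10,000) of 6 genes in TM2 cells with no, 1 or 2, and 3 or more *Slc4a11* UMIs, 1 line for each library, with 2, 17 and 7 cells in the last class. *Slc4a4*, *Car3* and *Cldn10* were highest and *Myoc* lowest in the last class in all 3 libraries. In control 1 the *Slc4a4* value of that class came from 1 of its 2 cells.

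*Slc4a10* was scarce and was found mainly in cluster 17, whose leading genes are *Lypd1*, *Ogfrl1* and *Wnt6*. Its level there was 0.143, 0.370 and 0.268 UMIs per 10,000, with 35, 192 and 116 UMIs. Positive cells were 6.01% (4.03 to 8.57), 16.3% (14.0 to 18.9) and 11.4% (9.42 to 13.7). Immune cells gave 0 of 730 in control 1, with the limit taken as 3 cells of 730 (0.411%), and 0.0985% and 0.154% in the other libraries. The controls differed by more than their counting error at like depth (4673.5 and 4969 UMIs), and *Angpt1*ΔNC lay between them. No cell had over 3 UMIs, and 21 of 28, 115 of 151 and 89 of 102 positive cells had 1. The label held 53.8%, 85.3% and 68.6% of all *Slc4a10* UMIs. TM10 was at 0.135, 0.0204 and 0.00952 and TM9 at 0, 0.0599 and 0.142, and the libraries disagreed in both. *Lypd1*, the leading gene of cluster 17, was also the gene most like *Slc4a10* over the labels (r = 0.82), followed by *Lhfpl3* (0.75), *Tmem267* (0.66), *Nkain3* (0.65) and *Plcxd3* (0.62). Genes like *Slc4a11* over the labels included *Tenm2* (0.71), *Mboat1* (0.70), *Micall1* (0.69) and *Ppp1r14c* (0.68).

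*Slc4a7*, the electroneutral cotransporter, was the most even of the set. By the mean of the controls it led in Schlemm's canal endothelium (SC), at 0.857, 0.756 and 0.942 UMIs per 10,000. These values rest on 46, 63 and 15 cells, too few in *Angpt1*ΔNC for SC to be tested between genotypes. Next came cluster 18 (0.609, 0.740 and 0.764) and cluster 2 (0.716, 0.590 and 0.827). Cluster 4, with limbal and corneal epithelial markers, followed (0.676, 0.603 and 0.796). The control mean of SC was 1.20 times that of cluster 18. The lower control of SC (0.756) was close to the higher control of cluster 18 (0.740). From cluster 18 downward neighbours overlapped for most of the order, around a median of 0.393. The RPE, at the values above, and cluster 25, with no UMI in any library, came last. Cluster 25 was shallow, with medians of 1456, 1728 and 1321 UMIs in 56, 81 and 58 cells, so a low level could be missed there. The genes most like it were *Fam133b* (r = 0.85), *Prrc2c* (0.83), *Ywhaz* (0.83), *Acot9* (0.83) and *Noc4l* (0.81).

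*Slc12a2*, the NKCC1 gene, was highest in TM2 (4.01, 3.82 and 2.76 UMIs per 10,000), TM7 (3.18, 3.62 and 2.47), cluster 17 (3.099, 3.18 and 1.61), TM9 (2.49, 3.16 and 1.75) and TM3 (2.85, 2.68 and 1.78). TM2 and TM7 did not overlap with the label after them, while cluster 17 and TM9 did. In each of these 5 labels *Angpt1*ΔNC was below both controls, where 38.9% of all tested gene and label pairs lay by summed UMIs. Of the 5 labels only TM3 passed edgeR's test between genotypes, given below. Pericytes (cluster 20) were at 2.33, 2.21 and 1.93. By the mean of the controls the immune clusters 24, 22 and 25 were lowest, with 0.0458, 0.0408 and 0.0772 in cluster 24. The ciliary epithelium (cluster 7, 0.163) came just above them, below the immune cluster 23 (0.173). In TM2, 83.6%, 83.3% and 75.1% of the cells were positive. The pattern over the labels was most like that of *Dpysl3* (r = 0.82), *Golph3* (0.81), *Gnas* (0.81), *Rybp* (0.80) and *Neo1* (0.80), and among the members like that of *Slc4a4* (r = 0.65).

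To ask whether the transporters differed between genotypes, UMIs were summed per label and library and tested with edgeR in the 32 labels with at least 20 cells in each library. With 2 control libraries against 1, the fit keeps 1 residual degree of freedom, and the spread of the *Angpt1*ΔNC pool is taken to equal that of the control pools. Of 127 member and label pairs with at least 15 UMIs, 8 passed an adjusted p of 0.05, 4 higher and 4 lower in *Angpt1*ΔNC (6.30%, against 3.99% of all 290563 gene and label pairs), a share of the same order. *Slc12a2* had 5 of the 8, and *Slc4a4*, *Slc4a7* and *Slc4a10* 1 each. None of 27 pairs of *Slc4a2*, none of 11 of *Slc4a11* and not the 1 of *Slc4a5* passed edgeR's test, with 1 of each gene at an unadjusted p under 0.05, and DESeq2 called none of them either.

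*Slc12a2* was lower in 3 labels and higher in 2. In cluster 4, with limbal and corneal epithelial markers, it had 303, 282 and 208 UMIs (47.6, 43.6 and 22.1 CPM), a log2 fold change of -1.05 ± 0.19 and an edgeR adjusted p of 0.00426, where 6.95% of all genes were called. In TM5 it had 115, 173 and 109 UMIs (192, 160 and 85.6 CPM) and fell by 1.03 ± 0.28 on the log2 scale (edgeR adjusted p = 0.0136, 2.38% of genes called). In TM3 it had 392, 564 and 158 UMIs (270, 267 and 163 CPM) and fell by 0.72 ± 0.22 (edgeR adjusted p = 0.0216, 6.42% called). The *Angpt1*ΔNC value was below both controls in each of them. DESeq2 gave log2 fold changes of -1.04, -1.03 and -0.71 for these 3 but called none (adjusted p of 0.0595, 0.999912 and 0.447). In male-typed cells alone, those having Y-linked UMIs but not *Xist*, the log2 fold changes were -0.66, -0.94 and -0.32, and only that of cluster 4 passed edgeR's test (adjusted p = 0.0391). With no filter on low counts the calls of cluster 4 and TM5 were lost (edgeR adjusted p of 0.457 and 0.0547), and with equal numbers of cells that of TM3 (0.0766). Among labels that did not pass, TM4 gave 230, 238 and 140 CPM, cluster 17 gave 289, 305 and 180 CPM (edgeR adjusted p = 0.0631), and TM2 gave 399, 377 and 260 CPM. Others were not lower: TM8 gave 186, 208 and 211 CPM, TM10 gave 52.6, 59.9 and 64.6 CPM, and cluster 3 gave 78.7, 58.8 and 69.3 CPM. Over its 30 tested labels *Slc12a2* was below both controls in 18 and above both in 9, against 38.9% and 37.8% of all gene and label pairs.

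The melanocyte-marked clusters went up instead. In cluster 9 *Slc12a2* had 273, 419 and 360 UMIs (67.5, 94.0 and 173 CPM), a log2 fold change of 1.10 ± 0.17 and an edgeR adjusted p of 3.98e-06, with 10.6% of the genes of that label called, and DESeq2 called it too (adjusted p = 0.0113). In cluster 8 it had 1209, 1342 and 1322 UMIs (134, 183 and 257 CPM), a log2 fold change of 0.70 ± 0.17 and an edgeR adjusted p of 0.0422, with 7.8% of the genes called (DESeq2 adjusted p = 0.0625). The *Angpt1*ΔNC value was above both controls, but the controls themselves were apart in both labels. In male-typed cells the log2 fold change of cluster 9 was 0.78 with an edgeR adjusted p of 0.233, and that of cluster 8 was 0.59 (0.0852). Melanocyte markers moved unevenly beside it: *Sox10*, a neural crest transcription factor gene, was at 1.01, 1.14 and 3.21 UMIs per 10,000 in cluster 9 and at 1.14, 1.13 and 2.55 in cluster 8, while *Tyrp1* in cluster 8 was at 69.1, 78.9 and 77.0. Their part in the result was not tested.

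**Figure D4:**
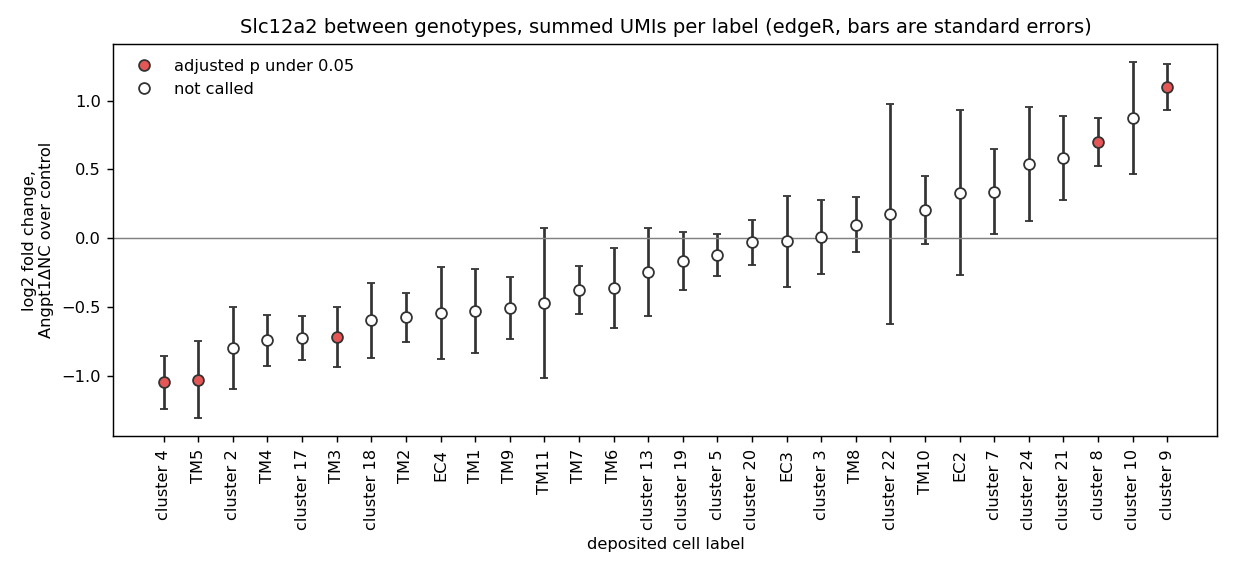
Log2 fold change of *Slc12a2* in *Angpt1*ΔNC over control in the 30 labels tested, with standard errors, ordered by size, filled where the edgeR adjusted p was under 0.05. Clusters 4, TM5 and TM3 lie below 0 and clusters 8 and 9 above.

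The other 3 pairs were of *Slc4a7*, *Slc4a4* and *Slc4a10*, and those of *Slc4a4* and *Slc4a10* rested on few UMIs. *Slc4a7* in cluster 8 had 263, 238 and 85 UMIs (29.1, 32.4 and 16.5 CPM), a log2 fold change of -0.89 ± 0.19 and an edgeR adjusted p of 0.0225 (DESeq2 0.237). *Slc4a4* in cluster 8 had 29, 27 and 45 UMIs (3.21, 3.68 and 8.75 CPM), a log2 fold change of 1.35 ± 0.33 and an edgeR adjusted p of 0.0403 (DESeq2 0.517). Its level there, 0.0357, 0.0365 and 0.0884 UMIs per 10,000, was above that of the immune cells (0.00771, 0.0177 and 0.00884) but far below that of TM7. *Slc4a10* in TM9 had 0, 8 and 25 UMIs (0, 5.15 and 12.5 CPM), a log2 fold change of 2.02 ± 0.62 and an edgeR adjusted p of 0.0121, where 14.3% of genes were called. The log2 fold change was 1.27 without control replicate 1 and 7.29 without control replicate 2, a value that depends on the prior count, and the call was lost in edgeR with RLE size factors (adjusted p = 0.0719), with equal numbers of cells (0.640) and in male-typed cells alone (0.137). In TM2 *Slc4a11* gave 22.3, 84.5 and 56.7 CPM and a log2 fold change of 0.04 ± 0.57 (edgeR adjusted p = 0.984), with most of the counts in the 26 cells described above.

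Among the other transport genes, carbonic anhydrases gave 1 higher and 4 lower calls in 54 pairs of gene and label, with *Car4*, a membrane-bound form, at 18.5, 15.9 and 0 CPM in cluster 9 and at 26.6, 24.3 and 0.972 CPM in cluster 8. *Car3* rose in TM1 (0.487, 1.76 and 11.8 CPM, edgeR adjusted p = 0.00339) and fell in cluster 13 (122, 57.6 and 20.6 CPM, adjusted p = 9.43e-05), and *Car14* fell in cluster 13 (21.96, 15.6 and 0 CPM). *Atp1b2*, a sodium pump subunit, was higher in TM9 (38.1, 57.3 and 95.3 CPM). Chloride channels and anion exchangers gave 1 higher and 5 lower in 114 pairs. *Slc26a7*, a chloride and bicarbonate transporter gene, fell in TM9 (26.7, 30.9 and 5.99 CPM, edgeR adjusted p = 1.58e-05) and TM1 (144, 252 and 111 CPM), and *Ano1*, a calcium-activated chloride channel gene, fell in TM7 (50.2, 43.1 and 14.97 CPM).

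Of the kinases and binding proteins that regulate NKCC1 and NBCe1, 1 pair was higher and 2 were lower among 154. *Wnk1*, a chloride-sensing kinase gene, was lower in cluster 18 (260, 352 and 148 CPM) and higher in cluster 24 (92.3, 93.2 and 170 CPM), and *Stk39*, the kinase that phosphorylates NKCC1, was lower in cluster 20 (125, 115 and 71.7 CPM). None of these labels was one in which *Slc12a2* passed. The other SLC12 genes gave 0 higher and 1 lower in 95 pairs, *Slc12a7* in cluster 8 (25.6, 24.3 and 13.4 CPM), and the other SLC4 genes 0 and 1 in 23, *Slc4a3* in cluster 21 (107, 125 and 51.5 CPM). For all genes together 2.04% of the pairs were higher and 1.96% lower, with a median log2 fold change of -0.02.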

How the data were processed

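RNA of single cells was measured in 2 control libraries and 1 *Angpt1*ΔNC library. The authors deposited raw UMI counts per gene and called cell, with no normalization, and a cluster label for each kept cell. The submitters' processing notes name Cell Ranger 2.1.1, Seurat 3.1.3 and build mm10, and the matrix headers name Cell Ranger 3.0.2. The labels came with a table of integrated values for 3467 genes, whose values were not used. The authors' labels were used as they are, doublets having been removed by the authors before deposit.

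Levels, shares (1 UMI or more, exact Clopper-Pearson 95% intervals), thinned shares (2000 UMIs, 884 shallower cells left out) and correlations of log2(level + 0.1) over labels were computed with Python 3.11.15, numpy 2.4.6, scipy 1.17.1 and pandas 2.3.3. Genes compared in a correlation had a level of at least 0.5 in some label. Summed UMIs per label and library were tested with edgeR 4.0.16 in R 4.3.3 (quasi-likelihood test with TMM factors, p-values adjusted by Benjamini-Hochberg over the genes of a label with at least 15 UMIs), with DESeq2 1.42.0 as an alternative. Standard errors are the log2 fold change divided by the square root of F. The test was checked on simulated data. At the depths above (76981606, 80346829 and 66484181 UMIs in kept cells), a gene at 0.1 UMIs per 10,000 is missed in most cells. Of the gene identifiers, 31011 were found in GENCODE M21 (GRCm38), which gave positions. The ciliary marker *Cpamd8* was not analysed here, and no protein sequence was used. The members and lists were chosen with earlier results of these data known. All 7 members were named in every label, with the 5 genes of highest correlation each, called genes of the transport lists, and the genes of those lists with the highest level in a leading label. Labels from which fewer than 20 cells came in a library (3 of 35) were not tested. The p-values rest on the spread between the control pools, which the lone *Angpt1*ΔNC pool is taken to share. Some genes of these lists are not reported here.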

Additional observations from a re-analysis of the deposited data

How the results depend on the processing

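No paired analysis was possible because the groups share a single replicate number and nothing ties a control pool to the *Angpt1*ΔNC pool. The cause of the changes below was not tested. With summed UMIs over summed depth, *Slc4a7* in SC was 0.889 and *Slc4a11* in TM2 0.521 UMIs per 10,000 as means of the controls, against 0.807 and 0.287. The leading label stayed for all 7 genes with summed UMIs, with cells of at least 2000 UMIs and without control replicate 1, and for 6 without the cells with the most UMIs or without control replicate 2, where TM5 led *Slc4a11* at 0.177 and 0.196. Positive shares (mean of the controls) went from 49.4% to 22.8% for *Slc4a4* in TM7, from 38.6% to 13.9% for *Slc4a5* in cluster 7 and from 8.41% to 3.03% for *Slc4a11* in TM2 when thinned, and to 20.3%, 17.6% and 3.15% at 2 UMIs, with *Slc4a10* in cluster 17 going from 11.2% to 2.70%. With labels weighted equally, TM7 held 10.9% of *Slc4a4* (21.9% of UMIs) and 8.12% of *Slc12a2* (13.6%), cluster 1 held 71.7% of *Slc4a5* (79.8%), and cluster 5 held 3.87% of *Slc4a7* (17.6%) and 11.97% of *Slc4a11* (37.7%). In pigmented cells of cluster 7 *Slc4a5* was 1.26, and 1.11 with 1 UMI of a side, 1.13 with more UMIs of a side and 0.902 when thinned.

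Of the pairs that differed between genotypes, 8 became 2 with DESeq2 (1 of them among the 8; 42 pairs had no adjusted p), 11 with RLE factors (7 shared), 11 with no filter on low counts (6 shared), 8 with equal numbers of cells (6 shared), 7 in labels of at least 100 cells and 7 when adjusted over all labels (6 shared). In male-typed cells alone, an alternative added after seeing the data, 5 of 96 pairs passed, 2 of them among the 8. No direction turned in any of these, all of which use the same *Angpt1*ΔNC library. Directions also stayed without either control. That was nearly fixed beforehand, because in each of the 8 pairs the *Angpt1*ΔNC value lay above both controls or below both. *Slc12a2* in cluster 17 also passed with equal numbers of cells and in male-typed cells. *Slc4a4* in cluster 7 passed with DESeq2, RLE factors, no filter, equal numbers of cells and adjustment over all labels (edgeR adjusted p from 2.28e-08 to 0.0424, DESeq2 0.0274), not in the fit reported.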
